A study of Mus musculus with 6 samples.

Results

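Non-homologous end joining rejoins broken DNA without a homologous template. The 10 genes described here encode proteins that carry it out or direct ends to it: *Xrcc5*, *Xrcc6*, *Prkdc*, *Dclre1c*, *Poll*, *Polm*, *Xrcc4*, *Lig4*, *Nhej1* and *Trp53bp1*. They were taken by name from 21000 protein-coding genes of the mouse annotation. No measured value entered the rule, although earlier results of these data were known when the genes were chosen. In this pathway the Ku heterodimer binds each broken end and recruits the kinase DNA-PKcs. A nuclease and gap-filling polymerases then make the ends fit, and a ligase complex seals them. H3K27ac, acetylation of histone H3 at lysine 27, marks active promoters and enhancers, so regions of H3K27ac show where the chromatin of these genes carries an active mark.

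All libraries came from A9, a metastatic mouse line that descends from TC1 by cloning. The parent line was made from lung cells by transformation with viral oncogenes (E6 and E7 of HPV16) and an active form of H-ras, and the results hold for A9 in culture. Cultures received curcuphenol (0.00167 μmol), IFN-γ (5.832 fmol) or 1% DMSO, the vehicle of both, for 48 h, and 130000 live cells of each were used. Per treatment there is 1 library of H3K27ac chromatin and 1 of input DNA, 6 libraries in all, and the deposited data are 1 list of called H3K27ac regions per treatment. The lists hold positions only. The DMSO list has 47899 regions over 69.8 Mb, the curcuphenol list 48763 over 70.3 Mb and the IFN-γ list 55622 over 81.1 Mb. They give no height, score or read count, so the read depth behind them is unknown and the values below are base pairs (bp) inside regions and widths of regions, not levels of acetylation. With 1 library per treatment no difference has a replicate check, and no test was possible. Where 3 values of a gene or place follow each other they are in the order DMSO, curcuphenol, IFN-γ.

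The lists were checked against marker genes. The promoters of *Vim* and *Fn1*, which mark mesenchymal cells, and of *Actb*, *Gapdh* and *Eef1a1* held a region in every list. The promoter of *Col1a1*, the other mesenchymal marker, held none, with 1326, 0 and 721 covered bp inside the gene, and the leukocyte genes *Ptprc*, *Cd3e* and *Csf1r* held none anywhere. Of the epithelial and lung markers, *Epcam*, *Krt18*, *Krt19*, *Nkx2-1* and *Sftpc* held no region in any list. *Krt8* had a promoter region with DMSO and IFN-γ, and *Cdh1* and *Scgb1a1* had regions inside the gene only, so the markers show little of the lung epithelium from which the line came. Of the endothelial markers, *Pecam1* and *Cdh5* had regions but none at the promoter, and *Kdr* had none. With IFN-γ, the interferon targets *Gbp2* and *Tap1* had 4.19 and 4.38 times the covered bp of DMSO.

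All 10 end joining genes had an H3K27ac region at the promoter in all 3 lists. Over the whole annotation, 46.9% of protein-coding genes had one in each list. The promoter was the stretch from 1000 bp upstream to 100 bp downstream of an annotated start site, and 1 bp of overlap was enough. The total width of the promoter regions ran from 1069 to 4561 bp in the DMSO list (median 2018.5 bp), from 609 to 3971 bp in the curcuphenol list (median 1761 bp) and from 1153 to 4433 bp in the IFN-γ list (median 1833 bp).

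The DNA under these regions is shown for 5 genes, taken from RefSeq promoter sequences of the assembly GRCm38.p6 (mm10). *Xrcc4*, *Xrcc6* and *Lig4* are transcribed away from a neighbour that starts nearby on the other strand, so the whole stretch between both start sites is given. For *Polm* and *Nhej1* the 250 bp upstream of the start site are given, because the edge of the region fell inside or beside them. Capitals mark matches, on either strand, to 4 of the motifs searched: GGGCGG (named for Sp1), CCAAT (for NF-Y), CCGGAAG (for ETS factors) and TTTCCCGC (for E2F factors). The *Lig4* interval holds none of them. All sequences read 5′ to 3′ towards the end joining gene.
Xrcc4, minus strand, chr13:90089609-90089666: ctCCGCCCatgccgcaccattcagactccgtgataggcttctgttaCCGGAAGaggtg
Xrcc6, plus strand, chr15:82016221-82016368: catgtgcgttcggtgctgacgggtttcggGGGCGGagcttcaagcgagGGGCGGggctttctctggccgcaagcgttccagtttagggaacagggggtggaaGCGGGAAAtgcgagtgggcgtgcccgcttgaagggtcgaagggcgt
Lig4, minus strand, chr8:9977681-9977716: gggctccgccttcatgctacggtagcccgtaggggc
Polm, minus strand, chr11:5838017-5838266: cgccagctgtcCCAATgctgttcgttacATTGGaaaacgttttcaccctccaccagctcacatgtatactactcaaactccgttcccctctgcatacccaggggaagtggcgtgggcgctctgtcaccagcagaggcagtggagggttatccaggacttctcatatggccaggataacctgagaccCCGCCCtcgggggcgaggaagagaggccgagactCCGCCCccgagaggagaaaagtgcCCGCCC
Nhej1, minus strand, chr1:75125227-75125476: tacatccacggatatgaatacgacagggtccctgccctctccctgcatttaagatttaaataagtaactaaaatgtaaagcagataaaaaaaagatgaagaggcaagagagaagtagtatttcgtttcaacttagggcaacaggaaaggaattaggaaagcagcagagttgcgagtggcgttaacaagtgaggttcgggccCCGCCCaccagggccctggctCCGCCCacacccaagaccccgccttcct

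The intervals of *Xrcc4*, *Xrcc6* and *Lig4* lay wholly inside an H3K27ac region in every list. Of the 250 bp upstream of *Polm*, the region took in all 250 in the DMSO list, 73 in the curcuphenol list and 16 in the IFN-γ list. Of the 250 bp upstream of *Nhej1*, 0 were inside a region in the DMSO list, 0 in the curcuphenol list and 40 in the IFN-γ list. The *Nhej1* region therefore began 5 and 12 bp after the start site with DMSO and curcuphenol and 40 bp before it with IFN-γ, and reached into the gene, while the upstream edge of the *Polm* region lay closest to the start site with IFN-γ.

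RefSeq promoter windows numbered 9 for 8 of the 10 genes (250 bp before to 50 bp after a start site, *Lig4* having 2), and *Prkdc* and *Poll* had no entry. The median GC content of the 9 windows was 60.3%, against 52.7% over all 32851 promoters, and their median count of CpG was 20 against 7. GGGCGG was found in 7 of the 9 windows and in 35.7% of all promoters, and CCAAT in 4 of the 9 and in 37.4% of all. CCGGAAG was found in 4 windows, those of *Dclre1c*, *Xrcc4* and both of *Lig4*, and in 8.86% of all promoters. TTTCCCGC was found in *Xrcc6* alone (1.07% of all promoters), TTTGGCGC in none (0.514% of all) and the NRF1 motif in *Lig4* alone (0.971% of all). Of the interferon motifs, the GAS motif TTCNNNGAA was found in *Dclre1c* alone (8.3% of all promoters) and the ISRE motif in none (3.44% of all). TGACGTCA (named for CRE) and TATAAA (the TATA box) were in none of the 9, against 1.79% and 13.6% of all promoters. These are matches of letters in a short window and not sites of binding.

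Several of these genes share a promoter with a neighbour. Of the 10, 5 had the start site of another gene on the opposite strand within 1000 bp upstream (50%), compared with 2279 of 21000 protein-coding genes (10.9%). *Poll* lay 21 bp from *Dpcd*, *Lig4* 37 bp from *Abhd13*, *Xrcc4* 59 bp from *Tmem167*, *Xrcc6* 149 bp from *Desi1*, and *Prkdc* 466 bp from *Mcm4*, which encodes a subunit of the replicative helicase. Each of the 5 neighbours had a promoter region in all 3 lists too. A region over such a pair belongs to both genes, and the lists cannot divide it between them.

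**Figure D1:**
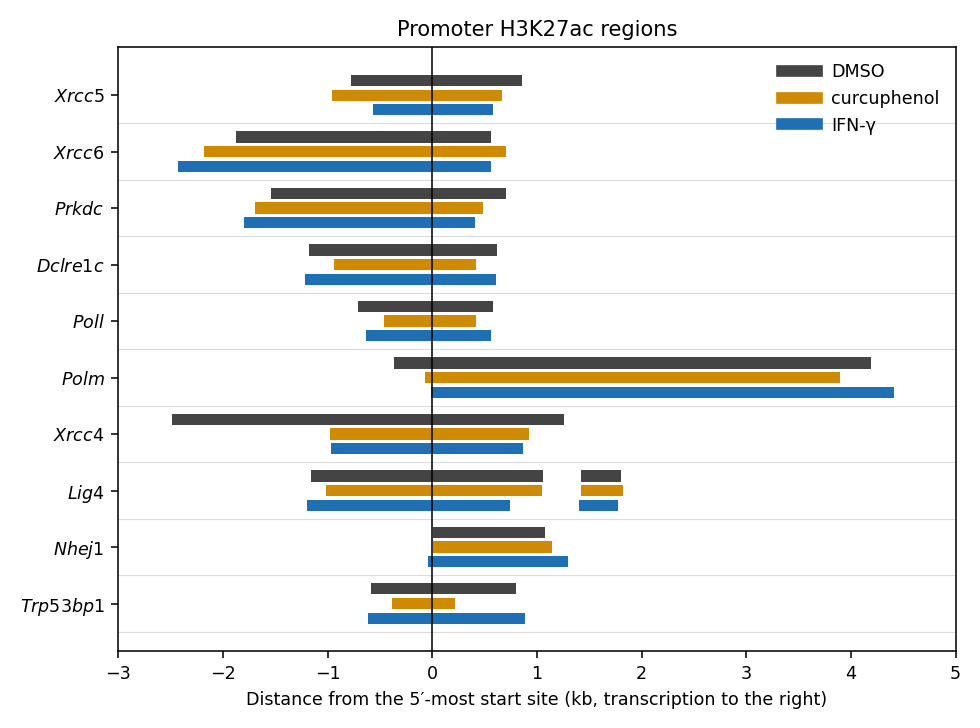
Promoter H3K27ac regions of the 10 end joining genes. The horizontal axis is the distance from the 5′-most start site in kb with transcription to the right, each bar is 1 called region, and colours give the 3 lists. The *Xrcc4* bar is widest with DMSO (3747 bp), the *Trp53bp1* bar is narrowest with curcuphenol (609 bp), and the *Nhej1* and *Polm* bars lie mostly inside the gene.

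The plot of promoter regions shows the widths gene by gene. *Xrcc5*, which encodes the Ku80 subunit, had a promoter region of 1632, 1617 and 1153 bp, narrowest with IFN-γ. *Xrcc6*, which encodes the partner subunit Ku70, had one of 2436, 2891 and 2993 bp, widest with IFN-γ. The region of *Prkdc*, the gene of DNA-PKcs, was 2239, 2178 and 2207 bp wide. In width of the whole region the Ku genes therefore moved in opposite directions with IFN-γ. The added width of *Xrcc6* lay upstream, where its region reached 2427 bp from the start site, against 1871 bp with DMSO. Within the gene and its 1000 bp upstream, the promoter part of *Xrcc6* was 1565 bp with DMSO and 1566 bp with IFN-γ. *Prkdc* stayed within 0.973 to 0.986 of its DMSO width.

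Among the end processing genes, *Dclre1c*, which encodes the nuclease Artemis, had a promoter region of 1798, 1357 and 1825 bp. *Poll*, which encodes the gap-filling polymerase λ, had one of 1282, 875 and 1194 bp. *Polm*, which encodes the related polymerase μ, had the widest promoter region of the 10 in every list, at 4561, 3971 and 4433 bp. All 3 were narrowest with curcuphenol, at 0.755, 0.683 and 0.871 of the DMSO width.

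Among the ligation genes, *Xrcc4*, the scaffold that holds the ligase, had a promoter region of 3747, 1905 and 1841 bp. The DMSO region (chr13:90088353-90092099) reached 2491 bp upstream of the start site, over *Tmem167*, and the treated regions 977 and 969 bp. *Lig4*, the ligase gene, had regions of 2601, 2463 and 2309 bp in total, 1 at each of its 2 start sites in every list. *Nhej1*, which encodes the filament-forming factor XLF, had the narrowest region of the 10 with DMSO, 1069 bp, against 1137 and 1339 bp with the treatments. *Trp53bp1* encodes 53BP1, which shields ends from resection and so directs them to end joining, and its region measured 1391, 609 and 1505 bp.

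Counted against a width ratio of 1.5 to DMSO, 0 of the 10 were wider with curcuphenol and 2 were narrower, *Trp53bp1* (0.438) and *Xrcc4* (0.508). Over 9925 genes, promoter regions were at least 1.5 times wider with curcuphenol at 7.95% and narrower at 21.3%, so 2 of 10 is close to the share over all genes. With IFN-γ 0 were wider and *Xrcc4* (0.491) was narrower, against 11.6% wider and 9.79% narrower among 10335 genes. Any difference in width counted, 8 of the 10 were narrower with curcuphenol and 6 with IFN-γ, against 66.2% and 45.5% of all genes. The median width ratio of the 10 was 0.909 with curcuphenol, beside 0.887 over all genes, and 0.979 with IFN-γ, beside 1.02.

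The base pairs covered by regions over the whole gene and the 1000 bp upstream differed most at *Xrcc4*. Its 240695 bp (chr13:89848914-90089608, minus strand) held 9026, 3735 and 3581 covered bp, ratios to DMSO of 0.414 with curcuphenol and 0.397 with IFN-γ. Of all genes with regions in both lists, 4.51% had a lower ratio with curcuphenol and 1.06% a lower ratio with IFN-γ. The values of both treatments lay within 0.06 of each other on the log2 scale. Both ratios divide by the same single DMSO list, so their closeness is not independent support for a difference. Under every setting tried the log2 ratio stayed between -1.54 and -1.27 with curcuphenol and between -1.62 and -1.33 with IFN-γ.

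**Figure D2:**
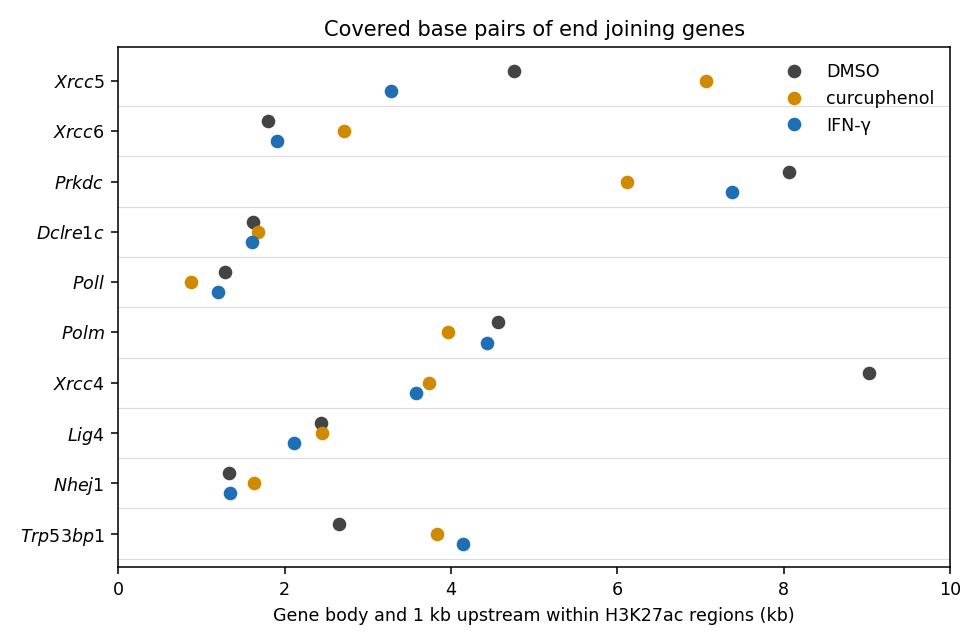
Covered base pairs of the 10 end joining genes. The horizontal axis is the length of the gene and its upstream 1 kb that lay inside H3K27ac regions, in kb, and each point is 1 list, without an error since each treatment has 1 library. *Xrcc4* stands at 9026 bp with DMSO and at 3735 and 3581 bp with the treatments, and *Xrcc5* spreads from 3279 bp with IFN-γ to 7063 bp with curcuphenol.

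*Xrcc5* (chr1:72307421-72394953, plus strand) had 4760, 7063 and 3279 covered bp. It lay on opposite sides of DMSO in the treatments, 1.48 times with curcuphenol and 0.689 times with IFN-γ, and its covered bp with curcuphenol were 2.15 times those with IFN-γ. *Xrcc6* (chr15:82016369-82040084, plus strand) had 1802, 2714 and 1914 covered bp. Its ratio to DMSO with curcuphenol, 1.51, passed the fold of 1.5 by little and was below it once the lists were scaled to their totals. *Prkdc* (chr16:15637866-15842239, plus strand) had 8071, 6123 and 7378 covered bp, lower in both treatments (0.759 and 0.914).

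*Dclre1c* (chr2:3424131-3466447, plus strand) had almost the same covered bp in the lists, 1619, 1675 and 1610. With 5000 bp upstream or with predicted transcripts its log2 ratio with curcuphenol turned from 0.05 to -0.52 or -0.44. *Poll* (chr19:45552275-45560564, minus strand) had 1282, 875 and 1194, all in the promoter region. *Polm* (chr11:5827860-5838016, minus strand) had 4561, 3971 and 4433, likewise all in the promoter region. These polymerase genes were therefore lowest with curcuphenol, at 0.683 and 0.871 of DMSO, and closer to DMSO with IFN-γ, at 0.931 and 0.972.

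*Lig4* (chr8:9970020-9977680, minus strand) had 2439, 2449 and 2116 covered bp. *Nhej1* (chr1:74967346-75125226, minus strand) had 1331, 1637 and 1339. Neither passed the fold in either treatment. *Trp53bp1* (chr2:121194835-121271407, minus strand) had 2650, 3832 and 4144 covered bp, 1.45 times DMSO with curcuphenol and 1.56 times with IFN-γ, although its promoter region was narrower with curcuphenol. Relative to length, the short genes held the most, *Polm* with 40.9% of its span inside regions with DMSO and *Lig4* with 28.2%, and *Nhej1* the least with 0.838%.

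With curcuphenol, 1 of the 10 was thus at least 1.5 times higher in covered bp (*Xrcc6*) and 1 lower (*Xrcc4*). The shares among 13263 genes were 21.9% higher and 20.8% lower. With IFN-γ, 1 was higher (*Trp53bp1*) and 1 lower (*Xrcc4*), against 21.1% and 8.91% of 12896 genes. Between the treatments, 1 was higher with curcuphenol (*Xrcc5*) and 0 lower, against 17.0% and 26.2% of 13439 genes. Counts of 0 or 1 among 10 genes are too small to set the list apart from genes at large in either direction, and the count higher with curcuphenol ran from 0 to 4 over the settings tried.

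**Figure D3:**
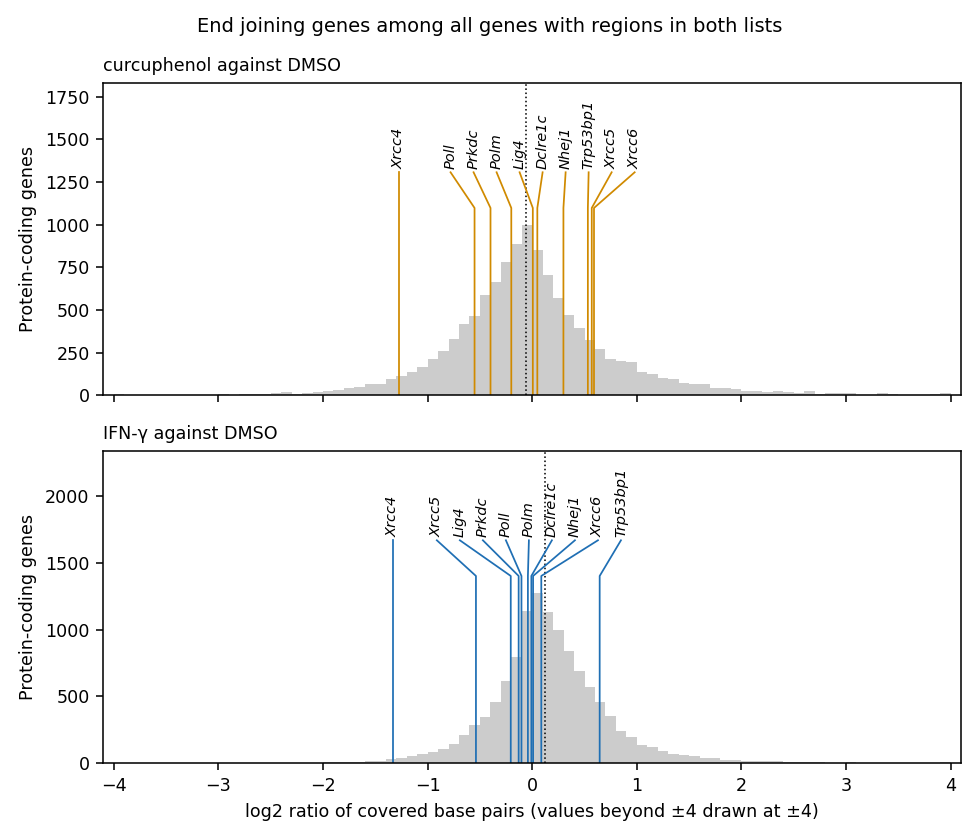
Log2 ratio of covered base pairs to DMSO for all protein-coding genes with regions in both lists (grey bars, counts of genes; dotted line, their median) with the 10 end joining genes marked. With curcuphenol (above) the 10 genes spread from -1.27 (*Xrcc4*) to 0.59 (*Xrcc6*), and with IFN-γ (below) from -1.33 (*Xrcc4*) to 0.65 (*Trp53bp1*), with most close to 0.

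Of any size, 6 of the 10 were higher and 4 lower with curcuphenol, against 46.7% and 52.6% of all genes, with a median log2 ratio of 0.03 beside -0.06 over all genes. With IFN-γ 3 were higher and 7 lower, against 63.2% and 35.9% of all genes, with a median of -0.07 beside 0.12. The IFN-γ list covers more of the genome, which lowers every IFN-γ ratio by 0.22 on the log2 scale when lists are scaled to their totals. On that scale 1 was higher (*Trp53bp1*) and 9 lower, since *Xrcc6* and *Nhej1* changed direction, and the median was -0.29 beside -0.09 over all genes. The shares of all genes higher or lower by any size were not computed on that scale. The count of 9 is therefore not read as a result about these genes. The scaling also evened the shares of all genes past the fold with IFN-γ to 14.3% higher and 14.5% lower, and those between curcuphenol and IFN-γ to 21.2% and 19.6%. On that scale *Trp53bp1* no longer passed the fold with IFN-γ and *Xrcc5* passed it as lower. The part of the larger IFN-γ list in these values was not tested.

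Overlapping regions of the 3 lists were merged to follow single places inside the genes. The 10 genes held 42 merged regions, 31 of them outside promoters, of which 23 were intronic and 8 touched an exon. Of the 31, 8 were in all 3 lists, 6 in 2 and 17 in 1 only (25.8%, 19.4% and 54.8%). Over all protein-coding genes, counted in the same way, the shares of 32602 places were 30.4%, 19.1% and 50.5%, so the end joining genes were close to genes at large. The places found in 1 list were narrow, with a median of 385 bp, and those in all 3 lists were wide, with a median of 1773 bp at their widest. With regions under 300 bp left out, 13 places were in 1 list and 7 in all 3. Of the 17 places in 1 list, 8 were in the curcuphenol list, 6 in the DMSO list and 3 in the IFN-γ list. Neither this split by list nor the counts without regions under 300 bp were computed over all genes. They are therefore not read as results about the end joining genes.

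**Figure D4:**
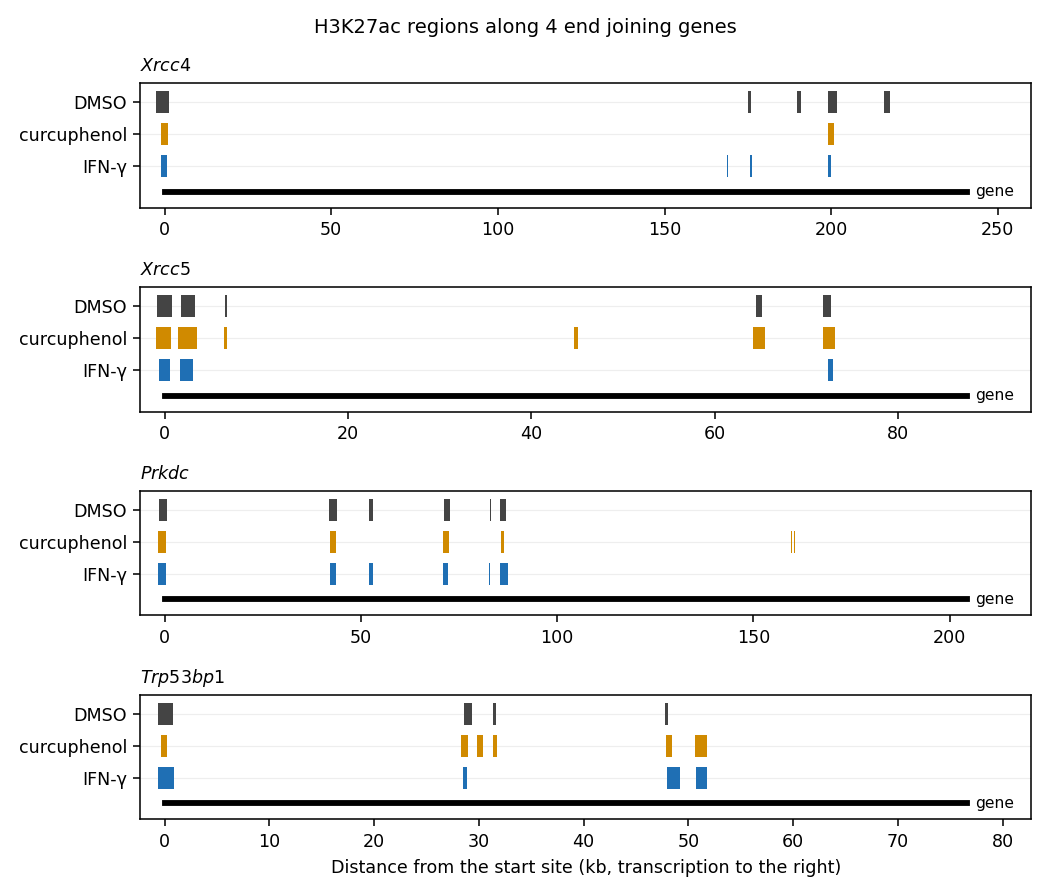
H3K27ac regions along *Xrcc4*, *Xrcc5*, *Prkdc* and *Trp53bp1*. The horizontal axis is the distance from the start site in kb, drawn for each gene to its own length, each bar is 1 called region, and each row of a panel is 1 list. The *Xrcc4* regions near 190.7 and 216.8 kb are present with DMSO only, the *Xrcc5* region near 64.9 kb is missing with IFN-γ, and the *Trp53bp1* region near 51.2 kb is missing with DMSO.

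In *Xrcc4* the distal regions lay between 169.0 and 216.8 kb from the start site, all in introns. The widest, at 200.3 kb (chr13:89887885-89890731), measured 2847, 1830 and 887 bp. A region of 1741 bp at 216.8 kb (chr13:89871949-89873689) and 2 of 530 and 555 bp at 190.7 and 189.9 kb were called with DMSO only. The region at 175.6 kb was 1097 bp wide with DMSO and 561 bp with IFN-γ, and absent from the curcuphenol list. As net differences, *Xrcc4* had 4940 fewer covered bp in these introns and 351 fewer at the promoter with curcuphenol than with DMSO. With IFN-γ the net differences from DMSO were 5030 and 415 bp. The promoter part is small because covered bp count no more than 1000 bp upstream, where the wide DMSO region reached farther. The only place of *Xrcc4* not called with DMSO was 1 of 292 bp with IFN-γ.

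In *Xrcc5* the region at 64.9 kb (chr1:72371627-72372960) measured 636 bp with DMSO and 1334 bp with curcuphenol and was not called with IFN-γ. The region at 72.5 kb measured 820, 1311 and 608 bp, and the region next to the promoter at 2.5 kb, which touches an exon, 1434, 2010 and 1518 bp. A narrow region at 6.7 kb measured 238 bp with DMSO and 323 bp with curcuphenol and was missing with IFN-γ. Each of the *Xrcc5* regions outside the promoter was widest with curcuphenol, and the 468 bp region at 44.9 kb was called with curcuphenol only. In *Xrcc6* the places outside the promoter were all in 1 list and narrow, 424 and 581 bp with curcuphenol, 348 bp with IFN-γ and 237 bp with DMSO.

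In *Prkdc* the regions at 42.9 kb (2005, 1441 and 1637 bp), 71.9 kb (1544, 1553 and 1082 bp) and 86.4 kb (1622, 963 and 1993 bp) were in all 3 lists. The region at 52.5 kb measured 969 bp with DMSO and 956 bp with IFN-γ, and curcuphenol had none there. Narrow regions were called in 1 list only, 228 bp at 83.1 kb with DMSO, 299 bp at 82.7 kb with IFN-γ, and 385 and 297 bp at 159.7 and 160.4 kb with curcuphenol.

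In *Trp53bp1* an intronic region at 51.2 kb (chr2:121219650-121220737) was 1088 bp wide after curcuphenol and 1059 bp after IFN-γ, and absent from the DMSO list. It was the only place inside the 10 genes that both treatments had and DMSO lacked. The neighbouring region at 48.5 kb measured 245, 539 and 1223 bp, widest with IFN-γ. Nearer the promoter, the region at 28.8 kb measured 739, 669 and 357 bp, the region at 31.5 kb 275 bp with DMSO and 346 bp with curcuphenol, and 1 of 581 bp at 30.1 kb was in the curcuphenol list only. The places of *Trp53bp1* nearer the start site were thus narrowest or missing with IFN-γ and those farther in were wider with both treatments. *Nhej1* (157881 bp long) held a 262 bp region with DMSO only and a 500 bp region with curcuphenol only outside its promoter, and *Dclre1c* a 318 bp region with curcuphenol only. *Poll*, *Polm* and *Lig4* held no region outside their promoters.

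Regions within 50 kb on either side of the genes numbered 34, 35 and 40, and covered 52150, 50031 and 62930 bp. Most were met by a region in all 3 lists, 23 of 34, 25 of 35 and 25 of 40. Of these flanking regions, 15, 15 and 17 lay at the promoters of other genes, so they belong to neighbours as well. With curcuphenol 9 of 35 were gained, meaning that no DMSO region overlapped them (25.7%, against 34.3% of the whole list), and 9 of the 34 DMSO regions were lost (26.5%, against 33.3%). With IFN-γ 10 of 40 were gained (25%, against 28.6%) and 8 of 34 lost (23.5%, against 17.9%).

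**Figure D5:**
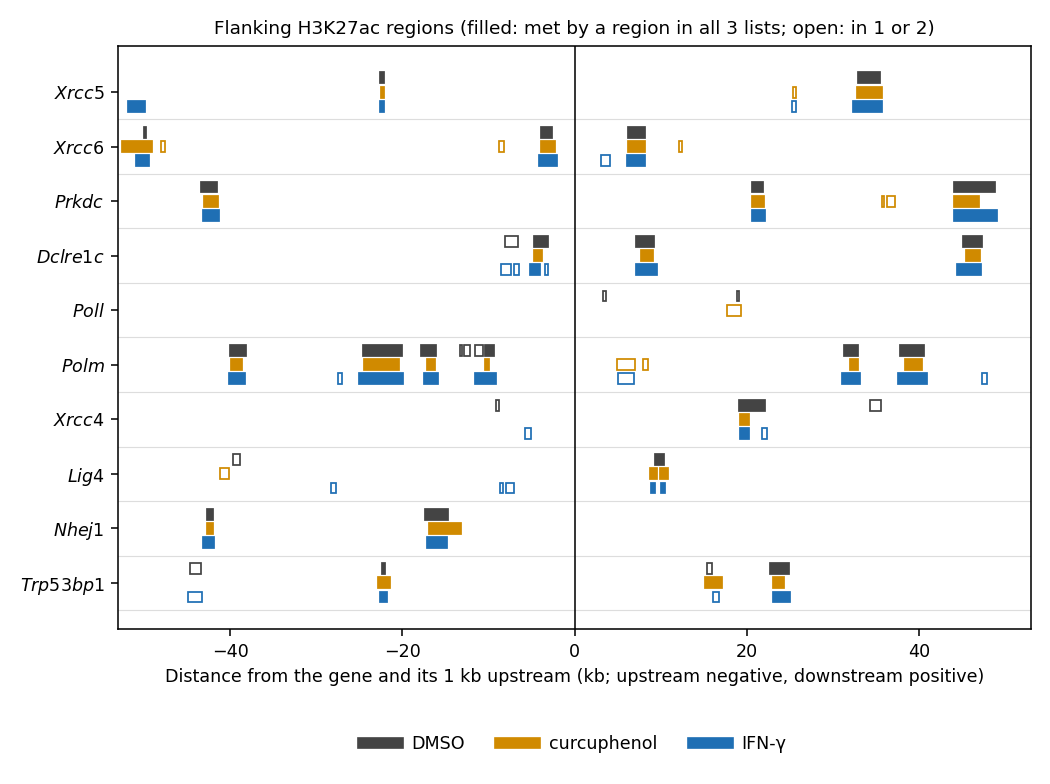
Flanking H3K27ac regions of the 10 end joining genes. The horizontal axis is the distance in kb from the gene with its upstream 1 kb, upstream to the left, and each bar is 1 called region coloured by list. Filled bars are met by a region in all 3 lists and open bars in 1 or 2. All bars at *Poll* are open, and open bars are also found at *Polm*, *Lig4*, *Xrcc4* and other genes but not at *Nhej1*.

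*Polm* had the most flanking regions, 9, 8 and 9. The widest gained region of both treatments lay 5.0 kb downstream of it, 2041 bp with curcuphenol (chr11:5820851-5822891) and 1914 bp with IFN-γ (chr11:5820972-5822885), and *Polm* itself had the nearest start site. On the upstream side of *Polm*, DMSO regions of 652 and 237 bp were missing with both treatments. The widest region lost with IFN-γ, 1311 bp, lay 34.2 kb downstream of *Xrcc4* with *Vcan* as the nearest start site, and it was lost with curcuphenol too. The widest region lost with curcuphenol, 1457 bp, lay 6.6 kb upstream of *Dclre1c* near *Meig1*, and was met by IFN-γ regions of 1154 and 653 bp.

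*Xrcc4* had 3 flanking regions with DMSO (4693 bp), 1 with curcuphenol (950 bp) and 3 with IFN-γ (2284 bp). Against the same single DMSO list, its surroundings were thus lower in both treatments, as the gene was. *Lig4* had 2, 3 and 5, and 3 of the IFN-γ regions were gained, 1 of them 581 bp at the promoter of *Tnfsf13b*, a cytokine of the TNF family. *Xrcc6* had 3, 6 and 4 and lost none with either treatment. *Prkdc* had 3, 5 and 3, of which curcuphenol gained 307 and 859 bp near *Cebpd*. *Poll* had 2 narrow regions with DMSO (542 bp), 1 with curcuphenol (1647 bp) and 0 with IFN-γ. *Nhej1* had 2 in each list, all shared, and *Xrcc5* and *Trp53bp1* had 2 to 4 per list.

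Other genes of the pathway were taken from lists set up alongside. Of 24 accessory and pathway choice genes, 22 had a promoter region in each list, against 46.9% of all protein-coding genes. In covered bp, 6 were at least 1.5 times higher and 5 lower with curcuphenol, and 2 were higher and 3 lower with IFN-γ. The shares among all genes, 21.9% and 20.8% with curcuphenol and 21.1% and 8.91% with IFN-γ, apply here as well, and the counts with curcuphenol are near them. The 6 higher with curcuphenol were *Mre11a* (1.55), *Rad50* (1.99), *Nbn* (1.58), *Atm* (2.22), *Tdp1* (1.86) and *Shld1* (2.71). The first 3 encode the MRN complex that senses breaks, *Atm* the kinase it activates, *Tdp1* an end-cleaning enzyme and *Shld1* a part of shieldin. In the same order, their promoter regions with curcuphenol were 0.963, 0.824, 0.897, 0.627, 0.774 and 1.06 of the DMSO width. All but that of *Shld1* were thus narrower, as were 66.2% over all genes. The 5 lower were *Cyren* (0.571), *H2ax* (0.617), *Mad2l2* (0.651), *Shld3* (0.499) and *Dntt*, whose 294 bp were called with DMSO only. With IFN-γ *Mre11a* (1.72) and *Shld1* (2.57) were higher, and *Rnf168* (0.663), *Shld3* (0.47) and *Dntt* lower. *Paxx*, a further ligation factor, had a promoter region with curcuphenol only (362 bp).

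Of 6 genes of alternative end joining, 5 had a promoter region in each list, *Xrcc1* lacking one with IFN-γ. With curcuphenol 0 were higher and 2 lower, *Xrcc1* (0.514) and *Polq* (0.449), the gene of polymerase θ, which joins ends at short stretches of shared sequence. With IFN-γ 0 were higher and 0 lower. Of 14 homologous recombination genes, 13 had a promoter region in each list, and *Dmc1*, a meiotic recombinase gene, had no region at all. With curcuphenol 1 was higher (*Rad54l*, 2.72) and 2 lower (*Rad51b*, 0.632, and *Rad51d*, 0.631), and with IFN-γ 2 were higher (*Rad51d*, 1.68, and *Rad54l*, 2.19) and 0 lower. The median log2 ratios of the homologous recombination list were -0.24 with curcuphenol and 0.04 with IFN-γ, beside 0.03 and -0.07 for the end joining genes. Beside the counts of both lists, 46.9% of all protein-coding genes had a promoter region in each list. In covered bp, 21.9% of all genes were higher and 20.8% lower with curcuphenol, and 21.1% and 8.91% with IFN-γ.

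Among these other repair genes, *Kat5*, *Aptx* and *Palb2* lay nearest to the median of the 10 end joining genes in the log2 ratios of both treatments, at distances of 0.02, 0.02 and 0.09 on the log2 scale. The likeness rests on 2 ratios per gene that share the DMSO list.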

How the data were processed

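H3K27ac ChIPseq of A9 cells was done by the authors under 3 treatments with 1 H3K27ac and 1 input library each. Reads were aligned by the authors to mm10 with BWA mem (0.7.17 per the submitters' processing notes, an earlier version in the methods), and regions were called with MACS2 (2.1.2, FDR cutoff 0.01, paired-end fragments) against the matching input. The deposited files hold positions and names of regions only, and duplicate filters and depth are not given in the sources used here. Narrow calling can split a broad domain.

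Genes were curated RefSeq transcripts of GRCm38.p6. Covered bp, promoter overlap and flanks were computed with pandas 2.3.3 and numpy 2.4.6, and the overlap code was tested on simulated regions. Genes with 0 covered bp in 1 of the lists compared counted as past the fold of 1.5. The genes and lists were chosen with earlier results of these data known. All 10 members, the neighbours with divergent start sites, those nearest the widest gained or lost flanking region, and listed genes past the fold or without a promoter region in all 3 lists were named. Of the marker genes, 2 are not reported here. Without replicates no test was run. No paired analysis was possible because each treatment has 1 library.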

Additional observations from a re-analysis of the deposited data

How the results depend on the processing

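Each list came from 1 library of unknown depth, so an absent region may be one that was not detectable, and edges of regions carry no error estimate. All 10 genes kept a promoter region in all 3 lists with 2000 bp on either side of the start site, with regions of at least 300 bp and with predicted transcripts. The number was 9 when the region had to cover the start site, without *Nhej1*, and 7 when its centre had to lie in the promoter, without *Nhej1*, *Polm* and *Trp53bp1*, whose regions reach into the gene. Higher and lower counts of covered bp are of the 10 end joining genes. Percentages beside them are shares over all genes at the same setting. With the gene body alone, 3 were higher with curcuphenol than with DMSO (24.3%) and 2 higher with curcuphenol than with IFN-γ (18.0%). The median log2 ratios were 0.13 and 0.18, beside -0.05 and -0.16 over all genes. With 5000 bp upstream, 0 were higher with curcuphenol (23.4%) and the median turned to -0.14, beside -0.06 over all genes. At a smaller fold, 0.32 on the log2 scale, 3 were higher (29.8%) and 3 lower (32.0%) with curcuphenol, and 2 lower with IFN-γ (16.3%). Between the treatments, 2 were higher (22.9%) and 1 lower (39.1%) with curcuphenol than with IFN-γ. At a fold of 2, 0 were higher with either treatment (15.0% with curcuphenol and 10.9% with IFN-γ). Scaled to the totals of the lists, 0 were higher with curcuphenol (21.7%), and with IFN-γ 0 were higher (14.3%) and 2 lower (14.5%). On that scale 2 were higher with curcuphenol than with IFN-γ (21.2%). The medians were -0.29 for IFN-γ and 0.27 between the treatments, beside -0.09 and 0.05 over all genes. With regions of at least 300 bp, 4 were higher with curcuphenol (22.9%). With predicted transcripts included 2 were (22.1%), with a median of -0.10 beside -0.06 over all genes. With widths scaled, the promoter regions of 2 genes, *Xrcc4* and *Xrcc5*, were past the fold as narrower with IFN-γ. A share over all genes was not computed for scaled widths, so this count is not read as a result about the genes. *Xrcc4* stayed lower in covered bp with both treatments under each of these settings. Within 20 kb, 4 flanking regions were gained with curcuphenol and 6 with IFN-γ. Within 100 kb, 17 were gained and 15 lost with curcuphenol and 20 gained with IFN-γ. When 50% of both regions had to overlap, 17 were gained and 16 lost with curcuphenol and 21 gained and 16 lost with IFN-γ. The shares of gained and lost regions at these flank settings were not computed, so these counts are not read as results about the genes. The medians for 5000 bp upstream and for predicted transcripts, the ratios of single genes, and the settings for promoter widths and merged regions were chosen after seeing the data. The fold and the overlap rule change counts by construction, and for the other settings the cause was not tested. No paired analysis was possible because each treatment has 1 library.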
